A study of Rattus norvegicus with 4 samples.

Results

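The genes described here are 10 that encode enzymes which cut the extracellular matrix and the inhibitors of those enzymes: the metalloproteases Adamts1, Adamts5, Mmp2, Mmp7, Mmp11 and Mmp14, the tissue inhibitors of metalloproteases Timp1, Timp2 and Timp3, and the serine protease gene Plau. They were taken as all probe sets that the array's annotation assigns to exactly 1 symbol, that symbol being one of the 10. This gave 18 of 31042 probe sets on the array and 10 of 14217 genes named this way. The data were expression arrays of the ventral prostate lobe of male F344 rats, an inbred laboratory strain, aged 6 weeks. The PhIP group received 300 mg/kg of PhIP, a heterocyclic amine that forms when meat is cooked, the control group did not, and all rats were killed after 2 days. RNA came from 4 rats a group, with RNA of 2 rats mixed on each array, which gave control 1, control 2, PhIP 1 and PhIP 2. An n of 2 therefore counts pools and not animals, and mixing narrows the spread that single rats would show. No genotype other than the strain is given.

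Matrix metalloproteases and the ADAMTS enzymes hold a zinc ion at the active site and are made as inactive precursors. Tissue inhibitors of metalloproteases, the TIMPs, block that site by binding the enzyme, so the balance of enzyme and inhibitor sets how much matrix is cut. Urokinase, the product of Plau, turns plasminogen into plasmin, which cuts matrix itself and activates several metalloprotease precursors. In the ventral prostate this system is known for its part in the remodelling of the gland when androgen is withdrawn.

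The TIMP genes are known to be regulated in different ways. Timp1 is shown because its change had the opposite sign to those of Timp2 and Timp3, the other TIMPs among the 10 genes. Timp2 and Timp3 are shown for comparison, and Mmp7 as a metalloprotease gene known for a site of the transcription factor AP-1 near its start. Windows of 250 bases before the start were available for 7 of the 10 genes from RefSeq (GRCr8). Capitals mark matches, on either strand, to the AP-1 motif TGANTCA, to the variant TGAGTAA (chosen after the Timp1 window was seen) and to the ETS motif AGGAAG. The Timp1 window is chrX:3771123-3771372 (minus strand), that of Timp2 chr10:104089215-104089464 (minus), that of Timp3 chr7:19459559-19459808 (minus) and that of Mmp7 chr8:13132793-13133042 (plus), each 5′ to 3′.
Timp1: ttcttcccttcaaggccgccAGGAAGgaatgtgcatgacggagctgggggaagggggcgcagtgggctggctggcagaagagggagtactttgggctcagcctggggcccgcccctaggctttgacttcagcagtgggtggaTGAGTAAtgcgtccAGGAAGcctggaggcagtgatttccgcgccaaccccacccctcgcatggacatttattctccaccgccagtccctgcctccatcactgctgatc
Timp2: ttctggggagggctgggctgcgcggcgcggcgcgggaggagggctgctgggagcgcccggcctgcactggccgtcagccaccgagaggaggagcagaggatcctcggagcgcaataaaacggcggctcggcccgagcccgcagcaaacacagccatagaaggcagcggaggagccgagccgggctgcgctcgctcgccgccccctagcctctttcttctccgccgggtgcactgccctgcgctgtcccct
Timp3: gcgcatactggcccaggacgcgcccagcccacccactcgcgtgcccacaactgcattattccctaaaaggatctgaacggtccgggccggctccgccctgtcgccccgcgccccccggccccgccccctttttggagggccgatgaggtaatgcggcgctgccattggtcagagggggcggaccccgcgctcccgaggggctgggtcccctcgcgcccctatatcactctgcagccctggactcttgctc
Mmp7: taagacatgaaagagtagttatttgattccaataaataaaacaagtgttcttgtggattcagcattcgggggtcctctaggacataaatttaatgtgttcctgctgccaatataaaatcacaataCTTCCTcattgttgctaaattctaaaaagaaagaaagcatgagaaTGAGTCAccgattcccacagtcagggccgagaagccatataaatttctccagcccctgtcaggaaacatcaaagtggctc
TGANTCA was found in Mmp7, 80 bases before the start, and in 1 of the 7 windows, against 6.34% of all 33469 windows. TGAGTAA was found in Timp1, 108 bases before the start, and in 2.38% of all windows. AGGAAG was found in 2 of the 7, Timp1 and Mmp7, and in 29.5% of all windows. The Timp2 and Timp3 windows hold none of these motifs. A match is a description of the sequence and not evidence of binding.

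The deposited values are MAS5 signals on a linear scale, already scaled by the authors to a common trimmed mean. For actin, the signal of the 3′ probe set over that of the 5′ one, which rises as RNA degrades, was 5.71 on control 2 and 3.49 to 4.18 on the other arrays. The log2 values of control 2 correlated with those of control 1 at r = 0.972, and those of control 1 with the PhIP arrays at 0.980 and 0.979, across tested probe sets, which are not independent of each other. Of the luminal prostate markers, Sbp, which encodes a secreted spermine-binding protein typical of this lobe, had signals of 6436.1 to 8219.2. Changes are given as PhIP minus control on log2(signal + 10), a scale that understates the change of dim probe sets. Probe sets above the 40th percentile of mean log2 level were tested with limma (18625), and p-values were adjusted over all of them by the Benjamini-Hochberg method. Of the 18 members, 13 were tested and 5 were too dim. In bulk tissue, fewer cells of a type and less RNA per cell cannot be told apart.

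Most of the protease and TIMP probe sets were lower in PhIP, Timp1 was higher, and 0 of the 13 tested passed an adjusted p of 0.05 in limma, against 0.0268% of all tested probe sets. With an unadjusted limma p under 0.05, 4 members of the 13 were lower: Adamts5, Mmp14, Timp2 and Timp3, each in its brightest probe set. The share of all tested probe sets that were lower at that p was 7.61%. Timp1 was the 1 member that was higher at that p, against 5.36% of all tested probe sets. Counted over all 18, tested or not, 13 were lower and 5 higher by their mean. Of all 31042, 17650 were lower and 13380 higher. The members had a median log2 change of −0.21, against −0.046 over all 31042. The groups did not overlap in 8 of the 18 that were lower and 1 that was higher, against 25.4% and 15.9% of all 31042. Among the 13 tested, 6 were lower and 1 higher without overlap, against 26.0% and 19.8% of all tested probe sets, or 45.8% in either direction. The metalloproteases had a median of −0.32 over 9 probe sets and the TIMPs one of −0.22 over 7. Over the 6 tested probe sets of each, the medians were −0.24 and −0.23.

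These counts depend on how the arrays are scaled. With the arrays centred on their medians, or scaled to the hybridization controls (spiked-in transcripts, whose 18 probe sets were all lower in PhIP), 1 member was lower and 1 higher at an unadjusted limma p under 0.05. These were Adamts5 and Timp1. The shares of all tested probe sets were 3.46% lower and 13.5% higher with median centring and 1.92% lower and 20.8% higher with the hybridization controls, so the 1 of 13 that was higher is below those shares. All tested probe sets then stood at a median of 0.11 and 0.20, against −0.025 as deposited, and of those under that p 79.6% and 91.6% were higher, against 41.3%. The members' medians moved up with them: that of the metalloproteases became −0.19 and −0.097, and that of the TIMPs −0.084 and 0.0074. The count of lower members was 2 without PhIP 1 (against 3.77% of all tested probe sets) and 1 without PhIP 2 (3.89%), where 0 were higher. It was 5 without control 1 (14.5%) and 5 without control 2 (8.09%).

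**Figure D1:**
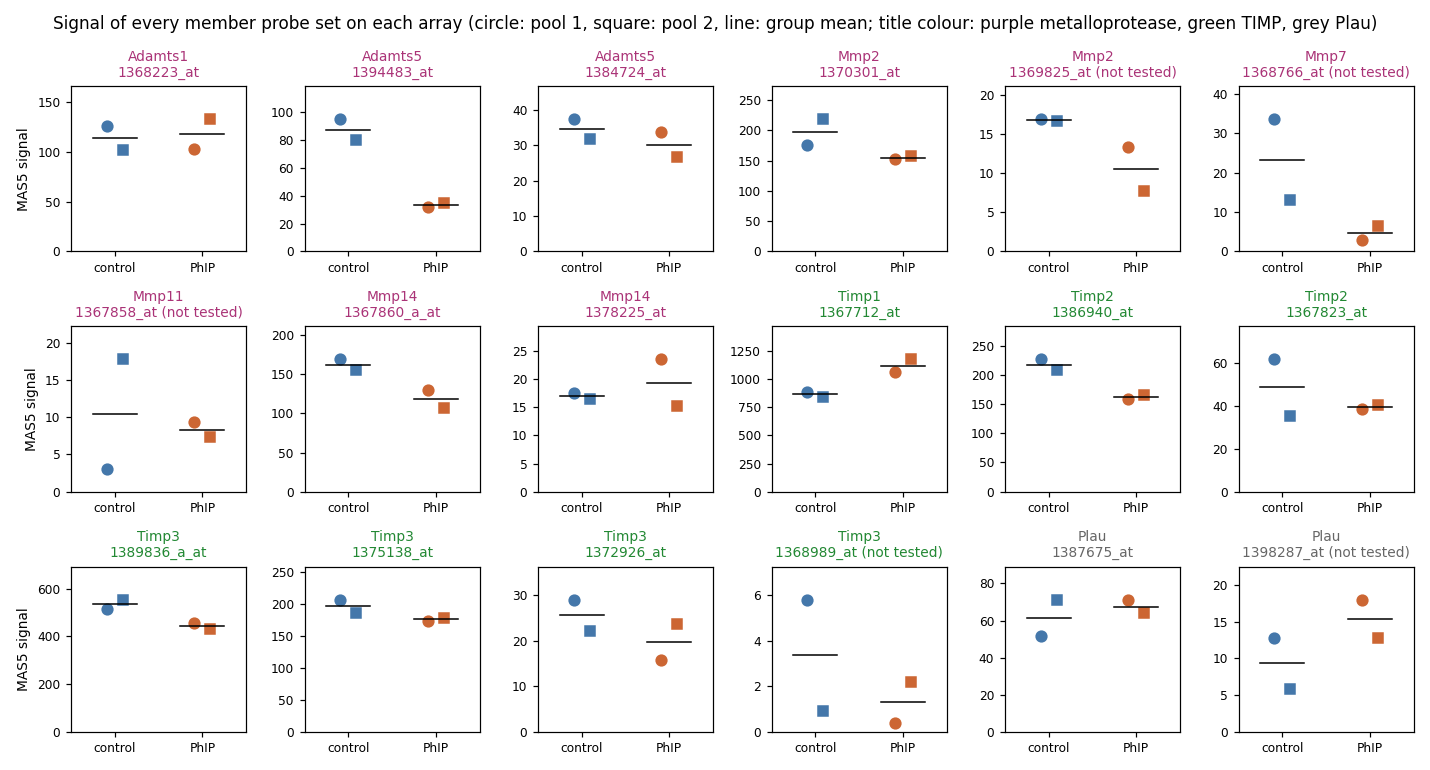
MAS5 signal (linear, from 0) of each of the 18 member probe sets on the 4 arrays; circles are pool 1, squares pool 2, lines group means, and title colours give the role. Adamts5 1394483_at has control signals of 79.5 and 94.6 and PhIP signals of 31.7 and 34.6, while Adamts5 1384724_at overlaps between groups.

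Adamts5, an enzyme that cuts the large proteoglycans aggrecan and versican, had the largest difference of all tested members. Its brighter probe set, 1394483_at, had signals of 94.6 and 79.5 in the control pools, against 31.7 and 34.6 in the PhIP pools. Both PhIP arrays lay well under both controls. The log2 change was −1.17 ± 0.18 (SE, n = 2 against 2; limma adjusted p = 0.0729), a level 2.24-fold lower. The second probe set of the gene, 1384724_at, had signals of 37.4 and 31.7 in the control pools, against 33.8 and 26.7 in the PhIP pools, and here the groups overlapped. Its change was −0.15 ± 0.22 (95% interval −0.65 to 0.35, adjusted p = 0.789 in limma), and it was 0.079 when the hybridization controls set the scale. The changes of the probe sets differed by −1.02 on the log2 scale, with SDs of the log ratio over pools of 0.028 in control and 0.25 in PhIP and no overlap of the groups. Which stretch of the transcript each probe set detects is not given in the sources used here. The change of the brighter one was −0.94 to −1.17 under the 4 scalings. It was −1.05 without control 1, −1.28 without control 2, −1.12 without PhIP 1 and −1.21 without PhIP 2. With an array left out, 1 array stands alone in its group, so only the change is given here.

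Adamts1, a related enzyme that also cuts aggrecan and versican, was measured by 1 probe set. Its signals were 126.3 and 101.8 in the control pools, against 102.7 and 133.1 in the PhIP pools. The groups overlapped fully, and the log2 change was 0.041 ± 0.18 with a 95% interval of −0.38 to 0.46 (limma adjusted p = 0.939). The sign turned to −0.10 without control 2 and to −0.13 without PhIP 2.

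Mmp14 encodes a membrane-bound metalloprotease that cuts collagen at the cell surface and, together with TIMP2, activates the precursor of MMP2. Its brighter probe set, 1367860_a_at, had signals of 169.2 and 155.4 in the control pools, against 129.9 and 107.6 in the PhIP pools. Both PhIP arrays were below both controls, with a log2 change of −0.42 ± 0.15 (limma adjusted p = 0.311). The change was −0.29 with median centring and −0.20 with the hybridization controls as the scale. The second, 1378225_at, had dim signals of 17.5 and 16.5 in the control pools, against 23.5 and 15.2 in the PhIP pools, which overlapped. Its change was 0.11 ± 0.26, and −0.099 without PhIP 1. The changes of the Mmp14 probe sets differed by −0.53 with no overlap of the groups.

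Mmp2, the gelatinase that cuts denatured collagen and basement membrane collagen, had signals of 175.7 and 218.3 in the control pools, against 151.9 and 157 in the PhIP pools for probe set 1370301_at. The groups did not overlap. The log2 change was −0.32 ± 0.15 (limma adjusted p = 0.409). Without control 1 the change was −0.47 and without control 2 it was −0.18. With median centring it was −0.19 and with the hybridization controls as the scale −0.097. The dim probe set 1369825_at, which was not tested, stood at 16.9 and 16.7 in the control pools, against 13.3 and 7.7 in the PhIP pools, a change of −0.40. Both probe sets of Mmp2 were thus lower on both PhIP arrays.

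The remaining metalloproteases were too dim to be tested. Mmp7, the small metalloprotease matrilysin that epithelial cells secrete, had signals of 33.6 and 13.1 in the control pools, against 2.9 and 6.5 in the PhIP pools. The PhIP arrays were the lower ones without overlap, but the control pools also lay far apart. Its log2 change was −1.12, and −1.85 with a constant of 2 in place of 10. Mmp11, a metalloprotease known from stromal cells, had 3 and 17.8 in the control pools, against 9.4 and 7.3 in the PhIP pools, and the control pools lay on either side of the PhIP pools (−0.053).

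Timp1, which encodes a soluble inhibitor of most metalloproteases, had the largest upward change of the tested members. Its signals were 888.7 and 846.3 in the control pools, against 1065.1 and 1177.1 in the PhIP pools, so both PhIP arrays were above both controls. The log2 change was 0.36 ± 0.09 (limma adjusted p = 0.181), a level 1.29-fold higher, with a 95% interval of 0.15 to 0.58. It stayed positive under each of the 4 scalings, from 0.33 after quantile normalization to 0.59 with the hybridization controls as the scale. The change was 0.40 without control 1, 0.33 without control 2, 0.44 without PhIP 1 and 0.29 without PhIP 2.

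Timp2, an inhibitor that also takes part in the activation of MMP2, had signals of 226.3 and 207.6 in the control pools, against 158.5 and 166.2 in the PhIP pools for probe set 1386940_at. The groups did not overlap, and the change was −0.40 ± 0.13 (limma adjusted p = 0.279), from −0.17 to −0.41 over the 4 scalings. Probe set 1367823_at had 61.9 and 35.6 in the control pools, against 38.6 and 40.7 in the PhIP pools. Only control 1 stood apart there, the change was −0.21 ± 0.25, and it was 0.12 without control 1 and 0.022 after scaling to the hybridization controls.

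Timp3, the TIMP that binds to the matrix and also inhibits ADAMTS enzymes, was measured by 4 probe sets, all lower in PhIP by their means. The brightest, 1389836_a_at, had signals of 514.9 and 554.5 in the control pools, against 455.3 and 432.6 in the PhIP pools. The groups did not overlap, and the change was −0.26 ± 0.10 (limma adjusted p = 0.349), which was −0.13 with median centring and −0.035 with the hybridization controls as the scale. Probe set 1375138_at had 206.3 and 185.3 in the control pools, against 172.5 and 178.3 in the PhIP pools, again without overlap, with a change of −0.15 ± 0.13 that was 0.079 after scaling to the hybridization controls. Probe set 1372926_at (29.1 and 22.1 against 15.8 and 23.8) overlapped, at −0.26 ± 0.25. The dimmest, 1368989_at, had signals of 5.8 and 0.9 in the control pools, against 0.4 and 2.2 in the PhIP pools and was not tested.

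Plau was measured by 2 probe sets with overlapping groups. Probe set 1387675_at had signals of 51.8 and 71.3 in the control pools, against 70.8 and 63.8 in the PhIP pools, a change of 0.12 ± 0.20 (95% interval −0.33 to 0.58, limma adjusted p = 0.808) that was −0.074 without control 1. The dim 1398287_at had 12.8 and 5.8 in the control pools, against 18 and 12.8 in the PhIP pools (0.41, not tested).

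**Figure D2:**
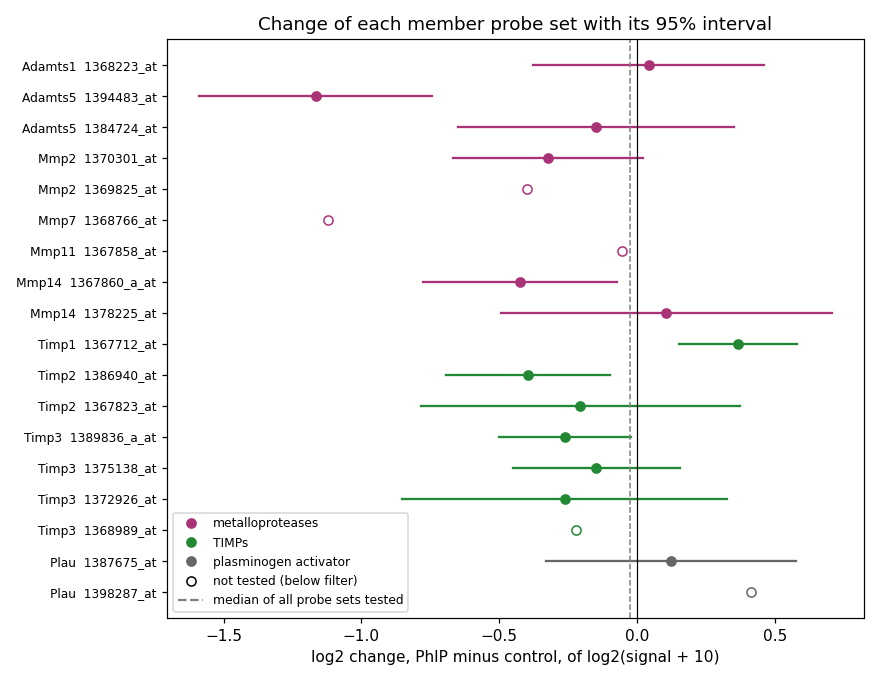
Log2 change (PhIP minus control) of each member probe set, with limma's 95% interval for the 13 tested ones; open circles are the 5 not tested and the dashed line is the median of all tested probe sets (−0.025). The intervals of Adamts5 1394483_at, Mmp14 1367860_a_at, Timp2 1386940_at and Timp3 1389836_a_at lie below 0 and that of Timp1 above it.

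The question of enzymes against inhibitors was put by comparing changes on the same arrays, where a shift of all log2 values of an array cancels. The brightest tested probe set of each of 4 metalloproteases and 3 TIMPs gave 12 pairs. Every enzyme was paired with every TIMP, without regard to which TIMP inhibits which enzyme. The pairs thus compare changes in RNA and do not measure inhibition. With 2 arrays against 2, an exact permutation test cannot go below p = 0.333 (two-sided), so the differences are given with the spread between pools. Against Timp1, each of the 4 was relatively lower in PhIP, and the groups did not overlap. The difference was −1.53 for Adamts5, −0.79 for Mmp14, −0.69 for Mmp2 and −0.32 for Adamts1, and the SDs of the log ratio over pools ranged from 0.032 to 0.28. These differences were −1.71, −0.82, −0.71 and −0.32 with a constant of 2.

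Against Timp2 and Timp3 the picture was not the same. Mmp2 differed from Timp2 by 0.072 and from Timp3 by −0.062, and Mmp14 by −0.028 and −0.16, with overlapping groups in each case. These differences were smaller than the larger of the SDs over pools, apart from that of Mmp14 and Timp3, which was just above it (SDs of 0.16 and 0.13). Adamts5 in its brighter probe set was lower than either TIMP, by −0.77 and −0.90 with no overlap. Adamts1 was higher than either (0.44 without overlap and 0.30 with overlap). The dimmer tested probe sets of Adamts5 (1384724_at, −0.15) and Mmp14 (1378225_at, 0.11) were not paired. Their changes lay above those of the Timp2 and Timp3 probe sets used (−0.40 and −0.26) and below that of Timp1 (0.36). The sign against Timp2 and Timp3 thus depends on the probe set. Among the TIMPs, the change of Timp1 lay 0.76 above that of Timp2 and 0.63 above that of Timp3, without overlap, and Timp2 differed from Timp3 by −0.13 with overlap. The 12 pairs of enzyme and inhibitor reuse 7 probe sets, so they are not independent. Of them, 9 were negative and 7 had no overlap, where 45.8% of all tested probe sets had no overlap in their own signals.

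**Figure D3:**
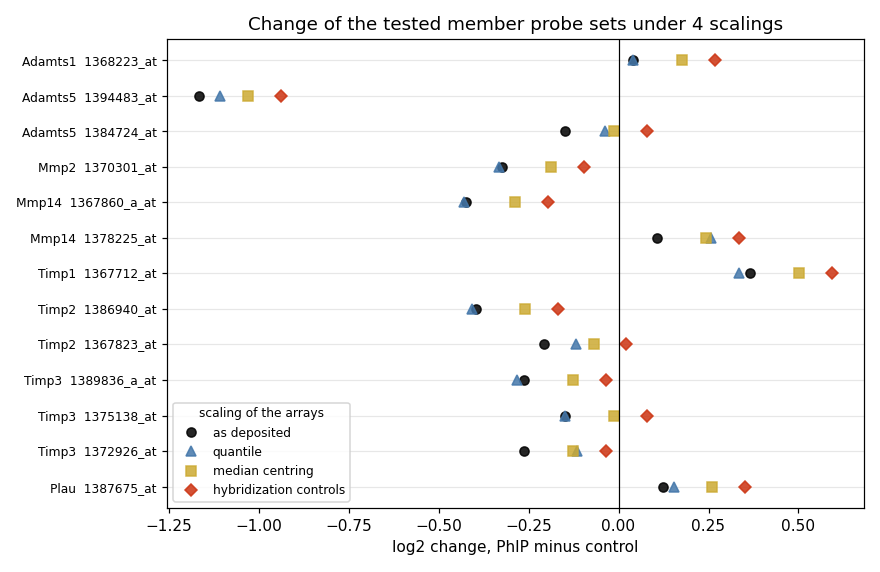
Log2 change of the 13 tested member probe sets (x axis, PhIP minus control) under the 4 scalings of the arrays. Adamts5 1394483_at stays between −1.17 and −0.94 and Timp1 between 0.33 and 0.59, while Timp2 1367823_at, Timp3 1375138_at and Adamts5 1384724_at cross 0 with the hybridization controls.

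Other genes of matrix breakdown were read from lists, with 1 probe set a gene. At an unadjusted limma p under 0.05, 7.61% of all tested probe sets were lower and 5.36% higher. None of the genes on these lists passed an adjusted p of 0.05 in limma. In the ADAM, astacin and meprin list, however, 1 did with a constant of 20, the filter at the 60th percentile, the replicate block or the hybridization controls as the scale. Of the other matrix metalloproteases, 13 of 18 were on the array and 4 were tested, with 0 higher and 1 lower at an unadjusted p under 0.05. That 1 was Mmp23 (−0.50 ± 0.21), and the brightest, Mmp24, stood at −0.051 ± 0.16. Of the other ADAMTS and ADAMTS-like genes, 8 were tested and all 8 were lower by their mean, though only 4 were with the hybridization controls as the scale. Of these, 1 had an unadjusted p under 0.05, Adamts9, a further enzyme that cuts proteoglycans, with signals of 35.4 and 38.8 in the control pools, against 4.5 and 20.1 in the PhIP pools (−1.17 ± 0.35, limma adjusted p = 0.246).

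Among the ADAM, astacin and meprin proteases, 2 of 7 tested were higher and 1 lower at an unadjusted p under 0.05. The shares of all tested probe sets were 5.36% higher and 7.61% lower. Mep1b, which encodes the beta subunit of the metalloprotease meprin, had signals of 302.2 and 314.2 in the control pools, against 648.7 and 589.3 in the PhIP pools, a difference opposite in sign to that of most members. Its change was 0.98 ± 0.11 with a limma adjusted p of 0.0517, and the membrane sheddase gene Adam10 stood at 0.52 ± 0.20. Timp4, a further TIMP, stood at 0.22 ± 0.15. It was on a list of other inhibitors of which 3 were tested and 1 was lower, Pcolce (−0.52 ± 0.14), which enhances the processing of procollagen and is not a metalloprotease inhibitor in that role. In the plasminogen system, 2 of 11 were higher and 4 lower. The lower ones included Lrp1, a receptor that clears proteases from outside the cell (−0.67 ± 0.15), and S100a10, which binds plasminogen activator (−0.34 ± 0.08), and the brightest, the protease inhibitor Spint2, was higher (0.20 ± 0.07). Cathepsins and cystatins gave 0 of 10 in either direction. Passes with an array left out are not counted for the lists, since 1 array then stands alone in its group. Without control 1 the medians were −0.20 for the ADAM list, −0.17 for the plasminogen system and −0.039 for cathepsins and cystatins. With all 4 arrays they were −0.042, −0.041 and −0.017. Among 12 regulators, 2 were higher and 1 lower at that p, with a median of 0.026. Jun, a subunit of AP-1, stood at 0.53 ± 0.16 and Bsg, an inducer of metalloproteases, at 0.23 ± 0.07. The brightest, Jund, also a subunit of AP-1, had the opposite sign (−0.20 ± 0.10). The 1 lower at that p was the growth factor gene Tgfb1 (−0.65 ± 0.24), named after its value was seen.

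Stromal genes were lower as well, counted at the same unadjusted p, at which 7.61% of all tested probe sets were lower. Of 17 tested matrix substrates, the proteins these enzymes cut, 12 were lower, with a median of −0.50 (−0.27 with the hybridization controls as the scale). Col1a2, a chain of type I collagen, stood at −0.88 ± 0.12 (adjusted p = 0.0534) and Sparc, a collagen-binding glycoprotein, at −0.53 ± 0.08. Smooth muscle markers were lower in 8 of 10, with a median of −0.70, and their summed signal was 9053.5 to 9119 in control and 6708.3 to 6756.6 in PhIP. Fibroblast markers were lower in 8 of 10, with a median of −0.53, and summed to 10003.5 to 12556.3 in control and 7562.1 to 7697.4 in PhIP. Of the matrix substrates, 0 passed an adjusted p of 0.05 in limma, but 1 did with the replicate block or the filter at the 60th percentile. In these settings 0.188% and 0.354% of all tested probe sets passed. The median of the matrix substrates was −0.43 without control 1 and −0.61 without control 2. Of the smooth muscle markers 0 passed, but 2 did with the replicate block, that filter or a constant of 20 (0.118% of all tested probe sets with that constant). Of the fibroblast markers 0 passed, but 1 did with the replicate block or that filter. The smooth muscle median was −0.66 without control 1 and −0.72 without control 2, and the fibroblast median −0.47 and −0.58. The matrix and fibroblast lists share Col1a1, Col1a2, Col3a1, Dcn and Lum.

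Markers of other cell types were counted in the same way, against 7.61% lower and 5.36% higher among all tested probe sets. Luminal epithelium markers were higher in 6 of 9, with a median of 0.25, and summed to 18243.9 to 19545.2 in control and 21144.3 to 21439.9 in PhIP. Endothelium markers were lower in 2 of 8 (median −0.30, summed 367.3 to 390.6 in control and 277.9 to 281.7 in PhIP) and basal epithelium markers in 1 of 7 (median −0.28, summed 1004.3 to 1036.7 and 910.2 to 995.8). Macrophage markers were higher in 2 of 10 and lower in 1, and summed to 5659.4 to 5707 in control and 6912 to 6957.7 in PhIP, most of it Lyz2. Their median was −0.14, with 7 of 10 lower by their mean, opposite in direction to that sum. These medians depend on the scaling. With the hybridization controls as the scale they were 0.48 for luminal, −0.073 for endothelium, −0.051 for basal epithelium and 0.086 for macrophage markers. In that setting 0 endothelium, 0 basal epithelium and 0 macrophage markers were lower at that p. Mast cell markers gave 0 of 4 in either direction, and of the neutrophil markers 4 of 7 were on the array, with 0 bright enough to test. With all 4 arrays, the largest drops by their medians were in skeletal muscle markers (3 of 6 lower, median −1.33) and adipocyte markers (3 of 5 lower, median −0.83). This order depended on single arrays. Without control 2 the skeletal muscle median was −0.56, with 2 of 6 higher. In that setting it was −0.99 for adipocyte and −0.72 for smooth muscle markers. Without PhIP 1 the adipocyte median was −0.43, against −0.66 for smooth muscle markers. Skeletal muscle markers summed to 940.9 and 1717.3 in control and to 519.3 and 442.5 in PhIP, and adipocyte markers to 457.5 and 320.5 in the control pools, against 133.7 and 267.1 in the PhIP pools. No marker on any of these lists was at 0 on any array. The part of these cell types in the members' values was not tested.

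**Figure D4:**
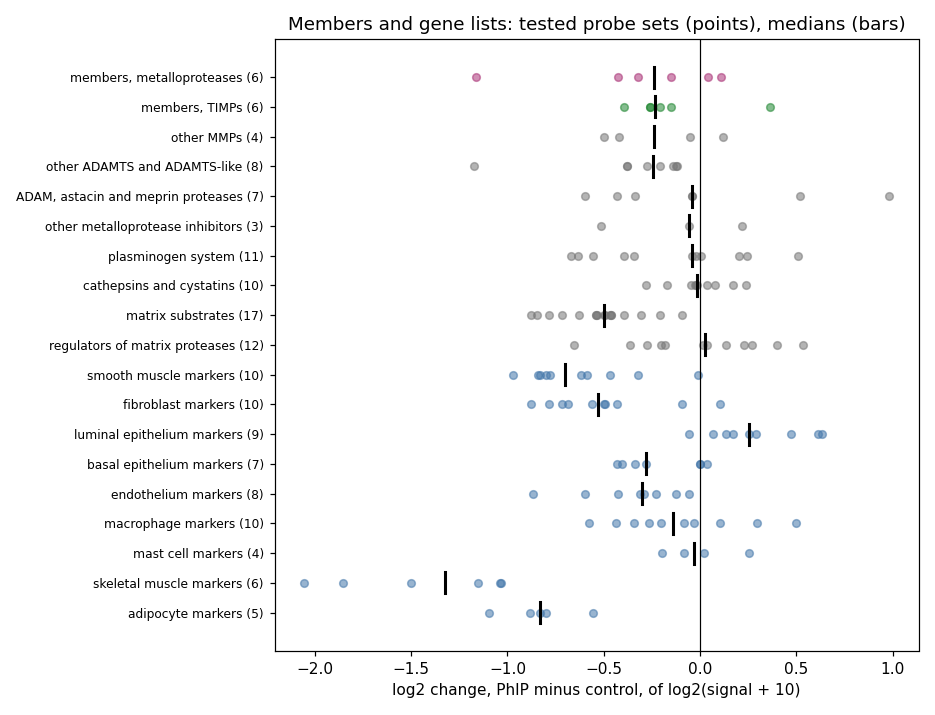
Log2 change (PhIP minus control) of the tested member probe sets and of the tested genes of each list (number in brackets), with a bar at each median. Skeletal muscle and adipocyte markers have the lowest medians with all 4 arrays, −1.33 and −0.83 (−0.56 and −0.99 without control 2). Smooth muscle, fibroblast and matrix substrate genes have medians of −0.70, −0.53 and −0.50, the member metalloproteases and TIMPs −0.24 and −0.23, and luminal epithelium markers 0.25.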

How the data were processed

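The deposited values are linear MAS5 signal intensities, as named in the submitters' processing notes with no version given. RNA was labelled with biotin from 5 µg of total RNA. Neither the scaling target nor detection calls were available here. Names came from the platform annotation (20826 with 1 symbol, 436 with several, 9780 with none), and all 10 member symbols matched the RefSeq gene table of GRCr8. The manufacturer's 57 control probe sets were left out. Signals were taken as log2(signal + 10) and filtered at the 40th percentile of the mean. They were tested with limma 3.58.1 in R 4.3.3 (lmFit, eBayes with an intensity trend, two-sided, Benjamini-Hochberg at 0.05) on 2 residual and 5.67 prior degrees of freedom. Nothing says that the pools were processed separately throughout, so p-values measure the spread between these arrays, and their number limits the precision. The limma fit, and no other step, was tested on simulated data with known changes.

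The members and the gene lists were chosen with earlier results of these data known. Every member probe set is given. Outside the members, the 2 genes of lowest p and the brightest gene of a list could be named, and those the text needs are given. Alternatives were other constants and filters, 3 other scalings, eBayes without a trend, the replicate number as a block, and leaving out each array. Python 3.11.15 with matplotlib 3.10.9 drew the plots.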

Additional observations from a re-analysis of the deposited data

How the results depend on the processing

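Over all tested probe sets, the number past an adjusted limma p of 0.05 was 5. It was 22 with a constant of 20, 44 with the filter at the 60th percentile and 165 after scaling to the hybridization controls. It was 0 with no filter, after quantile normalization, after median centring and with eBayes without a trend, where 3004, 2214, 3164 and 2248 had an unadjusted p under 0.05. Leaving out 1 array gave 0 to 2334, the highest without control 1 and the lowest without PhIP 1 or without PhIP 2, where 1097 and 1046 had an unadjusted p under 0.05. Of the members, 0 passed in any of these settings, except when a control array was left out (0 to 3 over the arrays): Adamts5, Mmp2 and Timp1 passed without control 1 (12.5% of all tested probe sets did) and Adamts5 without control 2 (2.48%).

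The median change of the metalloproteases was −0.19 with median centring and −0.097 with the hybridization controls as the scale, and that of the TIMPs −0.084 and 0.0074. Leaving out 1 array gave TIMP medians of −0.41 to −0.075. Leaving out 1 array turned the sign of 4 tested probe sets. Adamts1 ranged from −0.13 (without PhIP 2, with −0.10 without control 2) to 0.21, Mmp14 1378225_at from −0.099 (without PhIP 1) to 0.31, Plau 1387675_at from −0.074 (without control 1) to 0.32, and Timp2 1367823_at from −0.53 to 0.12 (without control 1). The hybridization controls as the scale turned the sign for that Timp2 probe set (0.022), Adamts5 1384724_at (0.079) and Timp3 1375138_at (0.079). Of the members too dim to test, Mmp11 also turned (0.49 without control 2, 0.029 without PhIP 2, 0.17 with the hybridization controls, 0.049 with a constant of 2, and 0.079 and 0.083 with quantile normalization and median centring), as did Timp3 1368989_at (0.047 without control 1, 0.0074 with those controls). The cause was not tested. With the replicate number as a block, 35 probe sets passed, 0 of them members, and 3 members were lower and 1 higher at an unadjusted p under 0.05, against 6.9% and 5.03% of all tested probe sets. The arrays share only a number: the deviations of same-numbered arrays correlated at r = −0.056.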
